A study of Mus musculus with 6 samples.

Results

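The genes described here are the Hedgehog coreceptors Boc, Cdon and Gas1, the receptor Ptch1, the ligand-binding inhibitor Hhip, the signal transducer Smo and the transcription factors Gli1, Gli2 and Gli3. They were taken by name, 9 of the 53379 genes in the table, and all 9 passed the filter on low counts, so none is missing below. RNA was sequenced in bulk from whole cortex at postnatal day 0, with 3 libraries from mice heterozygous for Npas3 (Npas3+/-), which encodes a transcription factor of the PAS family, and 3 from wild-type (WT) mice. Both groups were labelled with the strain C57BL/6. What the Npas3 allele carries, and whether the replicates of a genotype came from separate animals, is not given in the sources used here, so the spread behind each p-value is only that among these libraries. The Y-linked gene Uty was at 0.247 CPM (counts scaled to the size of the library) in Npas3+/- replicate 2. It was at 16.2 to 17.8 CPM in the other 5 libraries. No other Y-linked gene is given here, and genes such as Mapt also stood apart in 1 library, as described at the end. Whether that replicate came from another animal or pool than replicates 1 and 3 of its genotype cannot be told from Uty alone.

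In Hedgehog signalling a secreted ligand binds Ptch1 on the receiving cell, helped by Boc, Cdon and Gas1, and this frees Smo to signal at the primary cilium. Smo then acts on the Gli proteins: Gli3 serves mainly as a repressor that signalling removes, Gli2 mainly as an activator, and Gli1, Ptch1 and Hhip are themselves turned on by the pathway. In the forebrain Gli3 is known for dorsal patterning and is made by cortical progenitors, and Boc is known from cortical projection neurons.

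Boc stood higher in Npas3+/- cortex in every library, Gli3 stood lower in every library and Cdon was lower on average, while Gas1, Smo and Ptch1 lay close to their WT levels. In edgeR's quasi-likelihood test over all 21244 genes tested, 0 of the 9 passed at an adjusted p of 0.05, where 0.0377% of all genes tested passed (0.0282% higher and 0.00941% lower). DESeq2 called 1 of the 9, Boc, where it called 3.4% of the 15051 genes to which it gave an adjusted p. At an unadjusted p under 0.05 in edgeR there were 3 of the 9, Boc higher and Cdon and Gli3 lower, against 12.1% of all genes (6.29% higher and 5.84% lower). The groups did not overlap for 2 of the 9, Boc and Gli3, as for 18.9% of all genes. Total counts per library ran from 67378231 to 87811574, and each of these genes except Hhip had at least 422 counts in each library. Npas3, the targeted gene, had 15.0, 14.1 and 8.61 CPM in Npas3+/- replicates 1 to 3, and the WT replicates had 23.4, 28.4 and 25.7 CPM (log2 fold change -1.04, SE 0.20, adjusted p = 0.27 in edgeR and 0.000175 in DESeq2). The cortical deep-layer neuron gene Tbr1 lay between 252 and 303 CPM in all libraries.

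**Figure D1:**
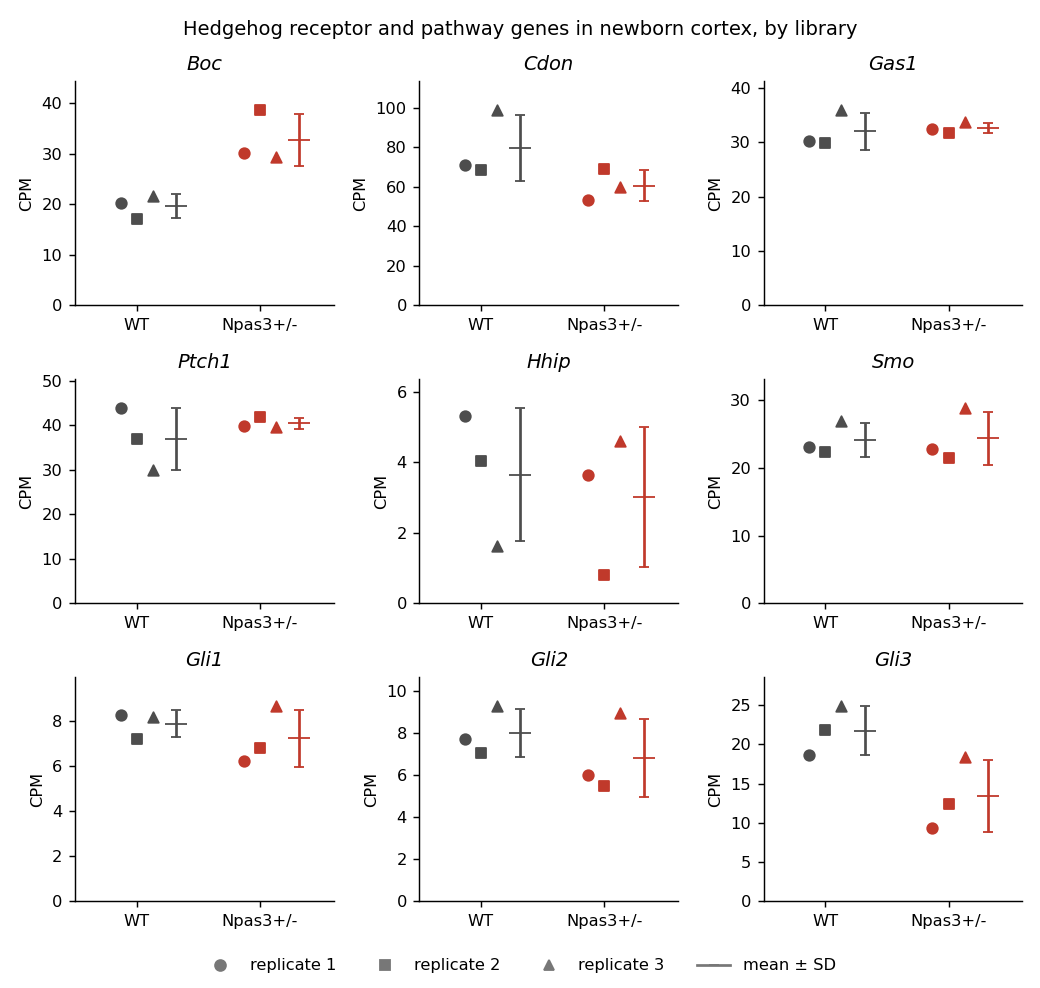
Level of each of the 9 genes in CPM (vertical axes, from 0) in the 3 WT (grey) and 3 Npas3+/- (red) libraries, with replicates 1 to 3 as circles, squares and triangles and the mean ± SD beside them. The groups separate for Boc, from 17.0 to 21.6 CPM in WT and from 29.4 to 38.6 CPM in Npas3+/-, and for Gli3, and overlap for the other 7 genes.

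RefSeq promoter windows were available for 7 of the 9 genes, those other than Boc and Gli1. The 250 bases before the annotated start are shown for 3 of them, 2 coreceptors and the Gli gene with the largest difference, with CG dinucleotides in capitals. They are from GRCm38.p6: Cdon at chr9:35451826-35452075 on the plus strand, a start site that lies 30948 bases inside the gene as GENCODE draws it, Gas1 at chr13:60177536-60177785 on the minus strand, and Gli3 at chr13:15463473-15463722 on the plus strand, 488 bases inside the GENCODE gene.
Cdon: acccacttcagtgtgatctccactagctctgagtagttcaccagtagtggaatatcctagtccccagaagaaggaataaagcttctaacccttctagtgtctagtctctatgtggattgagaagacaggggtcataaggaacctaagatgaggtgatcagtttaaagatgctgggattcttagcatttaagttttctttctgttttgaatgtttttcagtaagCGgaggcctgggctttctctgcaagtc
Gas1: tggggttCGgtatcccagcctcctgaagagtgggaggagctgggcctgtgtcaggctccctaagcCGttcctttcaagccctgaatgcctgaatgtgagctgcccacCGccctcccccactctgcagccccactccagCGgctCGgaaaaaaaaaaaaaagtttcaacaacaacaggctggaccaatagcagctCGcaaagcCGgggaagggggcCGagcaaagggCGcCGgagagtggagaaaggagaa
Gli3: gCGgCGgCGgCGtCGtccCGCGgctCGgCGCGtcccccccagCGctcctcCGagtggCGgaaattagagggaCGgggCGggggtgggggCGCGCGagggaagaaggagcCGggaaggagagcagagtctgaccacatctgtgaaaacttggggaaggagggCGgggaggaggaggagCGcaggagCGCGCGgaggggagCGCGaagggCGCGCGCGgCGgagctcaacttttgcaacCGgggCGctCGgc
The Gli3 window held 34 CG dinucleotides, that of Gas1 10 and that of Cdon 1, where the median of all 32851 windows in the table was 6. The core ACGTG, recognised by many dimers of PAS proteins with Arnt, and the Gli consensus GACCACCCA were searched on both strands, and neither was present in any of the 7 windows. The first occurs in 16.6% and the second in 0.225% of all windows of that length. The start sites used for Cdon and Ptch1 lie 30948 and 7863 bases inside the GENCODE genes. Their windows therefore do not describe the sequence before the GENCODE gene starts.

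Boc (ENSMUSG00000022687, mm10 chromosome 16, 44485049 to 44558897), an immunoglobulin-superfamily receptor that binds Hedgehog ligands, had 30.2, 38.6 and 29.4 CPM in Npas3+/- replicates 1 to 3, and the WT replicates had 20.3, 17.0 and 21.6 CPM. The lowest Npas3+/- library lay above the highest WT library, and Npas3+/- replicate 2 was the highest of all. The means were 32.7 ± 5.09 and 19.6 ± 2.37 CPM (SD, n = 3 each), a log2 fold change of 0.74 (SE 0.14, 95% interval 0.41 to 1.06). The adjusted p was 0.27 in edgeR and 0.000376 in DESeq2. Boc ranked 58 of 21244 genes by its unadjusted p, and 9.7% of all genes tested had Npas3+/- libraries wholly above WT. The direction held in all 16 alternative analyses, from 0.57 to 0.81, the lowest being the fit with the score of striatal genes as a covariate.

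Cdon (ENSMUSG00000038119, chromosome 9, 35421128 to 35507652), the closest relative of Boc among the coreceptors, was at 53.4, 68.9 and 59.7 CPM in Npas3+/- and at 71.4, 68.8 and 98.8 CPM in WT. The groups touched, since Npas3+/- replicate 2 and WT replicate 2 had almost the same level. WT replicate 3 stood well above the rest. The log2 fold change was -0.39 (SE 0.16, 95% interval -0.75 to -0.03, adjusted p = 0.377 in edgeR and 0.152 in DESeq2). Without WT replicate 3 it was -0.20.

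Gas1 (ENSMUSG00000052957, chromosome 13, 60174405 to 60177365), a coreceptor anchored in the membrane by a lipid, was the steadiest of the 9. It was at 32.4, 31.8 and 33.6 CPM in Npas3+/- and at 30.3, 29.8 and 35.9 CPM in WT, and the Npas3+/- libraries lay inside the WT range. The log2 fold change was 0.028 (SE 0.093), with a 95% interval of -0.19 to 0.24 that leaves out the difference seen for Boc. Its sign turned in 5 of the 16 alternatives. The noncoding gene Gm48488 on the opposite strand shares 19.9% of the exon length of Gas1, and had at most 140 counts in a library against at least 2050 for Gas1.

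The ratio of Boc to Cdon, chosen after the values were seen, did not overlap between the genotypes. On the scale of RPKM (CPM per kilobase of exon), which allows levels of different genes to be compared, log2 of Boc over Cdon was -0.030, -0.043 and -0.23 in Npas3+/- replicates 1 to 3, while the WT replicates had -1.02, -1.22 and -1.40. Boc was near the level of Cdon in the Npas3+/- libraries and well below it in WT (SD 0.11 and 0.19). No test is given: enumerating all splits of 6 libraries (two-sided) has 0.1 as its smallest p. Of the RPKM summed over the coreceptors, Boc made up 27.9% ± 2.48 in Npas3+/- and 17.3% ± 1.45 in WT, and Cdon 29.9% ± 1.73 and 40.2% ± 2.48. Gas1 made up 42.2% ± 3.72 and 42.5% ± 1.74. The summed level itself was 26.2 ± 1.89 RPKM in Npas3+/- and 25.5 ± 3.71 RPKM in WT, and the groups overlapped. Since the shares add up, a larger share of Boc implies a smaller combined share of Cdon and Gas1, not a smaller share of each.

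**Figure D2:**
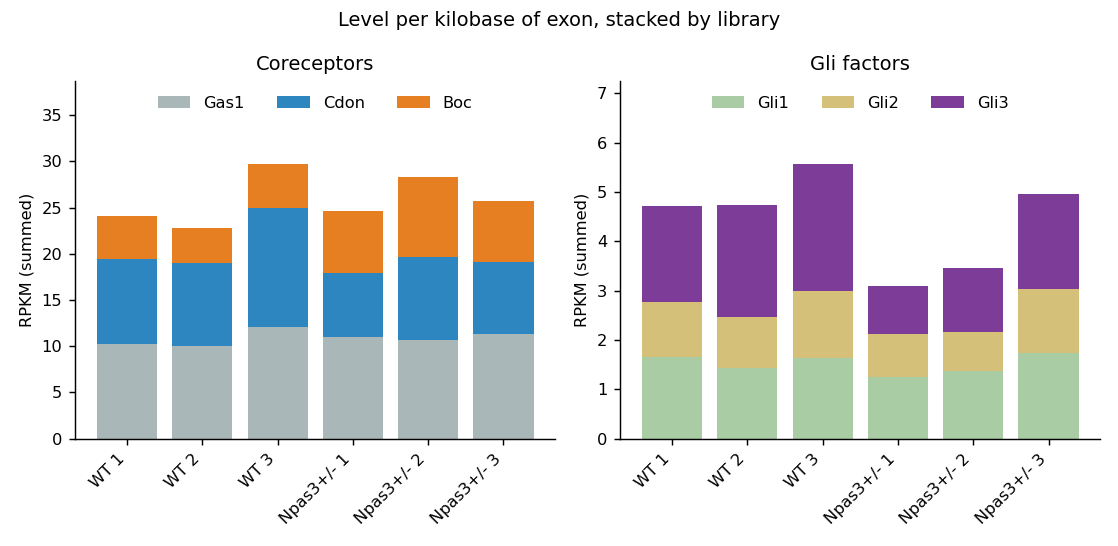
RPKM (vertical axes, from 0) of the coreceptors Gas1, Cdon and Boc (left) and of Gli1, Gli2 and Gli3 (right), stacked for each library. The Boc segment is taller in each Npas3+/- library than in each WT library at a similar summed height, and the Gli3 segment is shortest in Npas3+/- replicates 1 and 2.

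Ptch1 (ENSMUSG00000021466, chromosome 13, 63508328 to 63573598), the ligand receptor and a gene turned on by the pathway, was at 39.9, 41.8 and 39.6 CPM in Npas3+/- and at 43.8, 37.0 and 29.9 CPM in WT. The Npas3+/- libraries were close together inside the WT range, which WT replicate 3 widened downwards. The log2 fold change was 0.13 (SE 0.13, 95% interval -0.17 to 0.44, adjusted p = 0.742), with 0.0065 without WT replicate 3 and 0.28 without WT replicate 1. Hhip (ENSMUSG00000064325, chromosome 8, 79965851 to 80058006), a membrane protein that sequesters the ligand and is also turned on by the pathway, was at 3.64, 0.793 and 4.62 CPM in Npas3+/- and at 5.32, 4.04 and 1.62 CPM in WT. Its lowest value, 61 counts in Npas3+/- replicate 2, and its highest, 360 counts in WT replicate 1, spanned 2.71 on the log2 scale, the widest range among the 9. The log2 fold change of -0.28 had an SE of 0.64 and a 95% interval of -1.76 to 1.21, and it became 0.18 without Npas3+/- replicate 2 and 0.095 without WT replicate 1. No difference in Hhip could be read at this spread.

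Smo (ENSMUSG00000001761, chromosome 6, 29735503 to 29761365) encodes the membrane protein that signals at the primary cilium. It was at 22.8, 21.5 and 28.8 CPM in Npas3+/- and at 23.2, 22.3 and 27.0 CPM in WT. Replicate 3 was the highest of either genotype, and the means of 24.4 ± 3.91 and 24.2 ± 2.48 CPM differed by far less than the spread. The log2 fold change was 0.013 (SE 0.13, 95% interval -0.30 to 0.33), and its sign turned in 6 of the 16 alternatives, upper-quartile scaling among them.

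Gli3 (ENSMUSG00000021318, chromosome 13, 15463235 to 15730026) was at 9.34, 12.4 and 18.4 CPM in Npas3+/- and at 18.6, 21.8 and 24.8 CPM in WT. The groups did not overlap, but Npas3+/- replicate 3 was almost level with WT replicate 1. The log2 fold change was -0.70 (SE 0.24, 95% interval -1.26 to -0.15, adjusted p = 0.333 in edgeR and 0.0567 in DESeq2). Of all genes tested, 9.18% had Npas3+/- libraries wholly below WT. Without a single library it ran from -0.99, without Npas3+/- replicate 3, to -0.50, without Npas3+/- replicate 1. Gm6556, which lies on the opposite strand, shares 1.96% of the exon length of Gli3 and had at most 81 counts in a library.

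Gli2 (ENSMUSG00000048402, chromosome 1, 118834132 to 119053619) was at 6.01, 5.49 and 8.95 CPM in Npas3+/- and at 7.71, 7.06 and 9.28 CPM in WT, so that Npas3+/- replicates 1 and 2 were the lowest libraries and replicate 3 lay among the WT values. The difference on the log2 scale was -0.23 (SE 0.21, adjusted p = 0.713), and it moved both ways with 1 library left out: -0.47 when Npas3+/- replicate 3 was dropped, -0.15 for replicate 1 and -0.10 for replicate 2 of that genotype, and -0.11 when WT replicate 3 was dropped. Gli1 (ENSMUSG00000025407, chromosome 10, 127329882 to 127341974), the Gli gene used most often as a readout of signalling, was at 6.23, 6.81 and 8.66 CPM in Npas3+/- and at 8.28, 7.19 and 8.17 CPM in WT. Npas3+/- replicate 3 held the highest value and replicate 1 the lowest, and the log2 fold change was -0.12 (SE 0.16, 95% interval -0.49 to 0.25, adjusted p = 0.809). Without Npas3+/- replicate 3 it was -0.27 and without replicate 1 it was -0.025. Gli3 made up 31.5%, 37.4% and 38.7% of the RPKM summed over Gli1, Gli2 and Gli3 in the Npas3+/- libraries, against 41.1%, 47.9% and 46.4% in the WT libraries. The summed level was 3.84 ± 0.98 RPKM in Npas3+/- and 5.01 ± 0.49 RPKM in WT, with Npas3+/- replicate 3, at 4.95, above WT replicates 1 and 2.

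**Figure D3:**
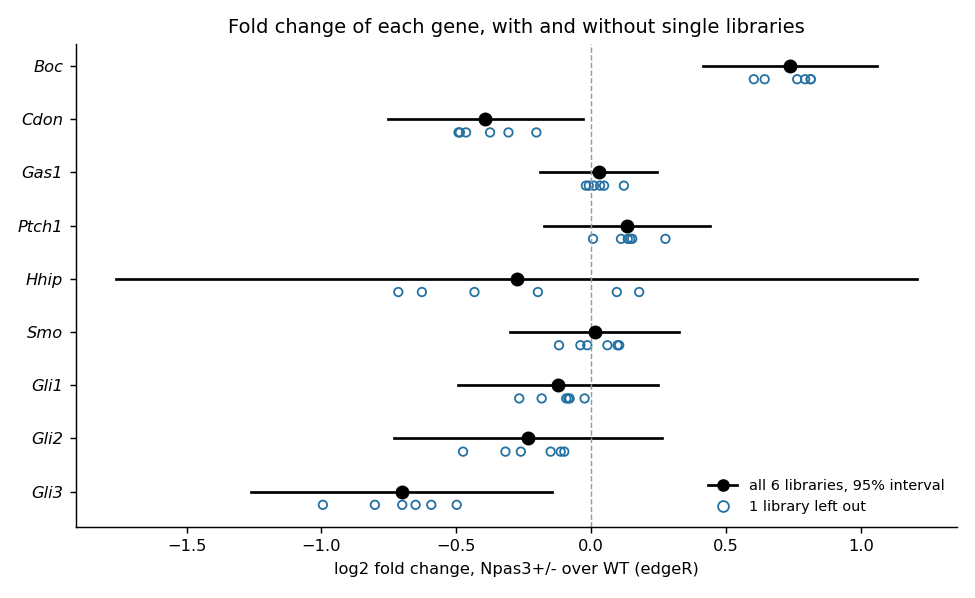
Log2 fold change of Npas3+/- over WT (horizontal axis) for each of the 9 genes, as filled points with 95% intervals for all 6 libraries and as open circles with 1 library left out in turn. The intervals of Boc, Cdon and Gli3 do not reach 0, before any adjustment over genes, and the circles of Gas1, Hhip and Smo fall on both sides of 0.

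Per kilobase of exon, Gas1 (10.8 ± 1.13 RPKM) and Cdon (10.3 ± 2.16) were the most abundant of the 9 in WT, and their ranges overlapped. Boc (4.41 ± 0.53) and Smo (4.30 ± 0.44) followed and overlapped each other, then Ptch1 (2.60 ± 0.49) and Gli3 (2.27 ± 0.32), which also overlapped. Gli1 (1.58 ± 0.12), Gli2 (1.17 ± 0.17) and Hhip (0.403 ± 0.207) came last, each with its range clear of the next. In Npas3+/- cortex Boc, at 7.35 ± 1.14 RPKM, overlapped with Cdon at 7.87 ± 1.01 and was clear of Smo at 4.34 ± 0.70, and Gli3, at 1.39 ± 0.48, overlapped with Gli1 at 1.45 ± 0.25. With the length of the longest transcript in place of the merged exons, Smo had 6.40 RPKM in WT and took its place above Boc, and no other place changed.

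The median log2 fold change of the 9 genes was -0.12, with 4 positive and 5 negative, against a median of -0.0095 over all genes tested, of which 51.8% were negative. The genes did not share an order of libraries. Npas3+/- replicates 1 and 2 each held the lowest value for 3 of the 9 genes, and WT replicate 3 the highest for 4. Markers of other cell types also differed between libraries. Of 16 radial glia genes, 15 had negative fold changes (median -0.32). In edgeR 0 passed, and 10 were lower at an unadjusted p under 0.05, where 5.84% of all genes tested were. DESeq2 called 4, Vim, Fabp7, Ptprz1 and Notch3, where it called 3.4% of the genes to which it gave an adjusted p. Their summed level was 1538 to 1862 CPM in Npas3+/- and 2013 to 2143 CPM in WT, again with Npas3+/- replicate 3 nearest to WT. Among them, the brain lipid-binding protein gene Fabp7 was at 266 to 332 against 408 to 458 CPM, the intermediate filament gene Vim at 55.0 to 69.6 against 98.7 to 122 CPM and the receptor phosphatase gene Ptprz1 at 437 to 475 against 539 to 577 CPM. Summed levels were also below WT in every Npas3+/- library for the astrocyte (437 to 534 against 546 to 645 CPM), Cajal-Retzius (223 to 258 against 270.4 to 373 CPM), thalamus (66.3 to 76.4 against 78.5 to 97.5 CPM) and septum and olfactory bulb lists (91.9 to 118.4 against 118.6 to 139 CPM). Fold changes were negative for 12 of 14, 8 of 8, 4 of 5 and 7 of 8 tested genes of these lists, in that order. Reln was the largest part of the Cajal-Retzius sum (205 to 235 against 245 to 342 CPM). For the thalamus it was Slc17a6 (46.9 to 50.9 against 50.3 to 64.4 CPM). For the septum and olfactory bulb it was Dlx6os1 (47.3 to 71.0 against 57.8 to 78.2 CPM). Slc17a6 and Dlx6os1 each overlapped between the groups. The part of all these cell types in the values of Gli3 and Cdon was not tested. In bulk tissue fewer cells of a type and less RNA per cell cannot be told apart. The summed level of 16 ganglionic eminence and striatum genes was 393, 413 and 614 CPM in Npas3+/- and 587, 638 and 384 CPM in WT, so the groups overlapped. Of these genes 13 had negative fold changes, with a median of -1.27. At an unadjusted p under 0.05 in edgeR 4 were lower, against 5.84% of all genes tested, but 0 passed in edgeR or DESeq2. In this list the striatal neuron gene Tac1 (0.626 to 3.27 against 1.73 to 21.1 CPM) had the smallest p. The transcription factor genes Meis2 (243 to 254 against 233 to 288 CPM) and Foxp1 (60.1 to 226 against 63.2 to 86.4 CPM) had the highest levels. With the score of these genes as a covariate the log2 fold changes were 0.57 for Boc, -0.56 for Cdon, -0.56 for Gli3 and 0.65 for Hhip, the last with its sign turned. For the 10 upper-layer neuron genes, 9 had positive fold changes (median 0.14) and the summed levels overlapped, from 2266 to 3791 CPM in Npas3+/- and from 2747 to 3007 CPM in WT. Pou3f1, a POU-domain factor and the member with the smallest p, was at 163 to 208 against 122 to 148 CPM, and Inhba, an activin subunit gene, at 65.6 to 88.1 against 53.0 to 66.8 CPM. The factors with the highest levels were Pou3f3 (685 to 767 against 586 to 717 CPM) and Mef2c (221 to 905 against 545 to 1108 CPM). Npas3+/- replicate 2, the highest for Boc, was also the highest of the 6 for this sum, and its part in the level of Boc was not tested. No marker in any of these lists with deposited counts, tested or below the filter, was at 0 in all libraries.

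The genes whose profiles over the 6 libraries came nearest to each member were found by the root mean square (RMS) difference of log2 CPM, each gene centred on its own mean, among genes of at least 10 CPM. For Boc they were Arid3b, a DNA-binding protein gene (RMS difference 0.087), and Grm2, a metabotropic glutamate receptor gene (0.11). Grm2 was at 60.6 to 78.5 CPM in Npas3+/- and at 33.7 to 49.0 CPM in WT (log2 fold change 0.72, SE 0.15, adjusted p = 0.27). For Cdon they were the noncoding Gm26871 (0.084) and Fst (0.093), which encodes the activin-binding protein follistatin and was at 9.53 to 10.2 CPM against 11.0 to 14.5 CPM. Near Gas1 was Sf3a2 (0.025), and Ptch1 was nearest to Rexo2 (0.041) and Snx14 (0.043) and Gli1 to Rgs12 (0.048) and Gm13509 (0.056). The nearest to Hhip, Usp27x and Lypd1, differed from it by 0.41 and 0.45, so no gene followed its profile closely. Near neighbours of a steady gene are steady genes, so these distances describe the profiles only.

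The wider pathway was read from 6 lists, in which 0 genes passed in edgeR. Among 8 genes for ligands and their release, 4 had positive and 4 negative fold changes (median 0.025). Shh itself was at 0.956, 0.780 and 0.675 CPM in Npas3+/- and at 2.22, 1.11 and 0.488 CPM in WT, a low level at which the groups overlapped, with a log2 fold change of -0.66 (SE 0.52) and an adjusted p of 0.663. Scube1, of the family that helps release the ligand, was at 169 to 219 against 157 to 173 CPM (0.26, SE 0.097), and Scube3 stood at 0.078 (SE 0.078). Of 4 other membrane proteins that bind Hedgehog ligands, Gpc3, a glypican that competes with Ptch1, was lower in all Npas3+/- libraries (0.494 to 0.887 against 1.25 to 1.63 CPM), with a log2 fold change of -1.05 (SE 0.31, adjusted p = 0.289). So was the endocytic receptor gene Lrp2 (0.933 to 1.20 against 1.41 to 2.45 CPM, -0.84, SE 0.28, adjusted p = 0.324).

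Of 22 genes that carry the signal from Smo to the Gli proteins, 13 had positive fold changes (median 0.038). The groups did not overlap for 5 on the higher side, where 9.7% of all genes do so, and for 4 on the lower side, where 9.18% do. Those with the smallest p were Cul3, a ubiquitin ligase scaffold (-0.15, SE 0.048), the kinase gene Stk36 (0.32, SE 0.11) and the protein kinase A subunit gene Prkacb (-0.11, SE 0.043), with adjusted p of 0.323, 0.335 and 0.373. Sufu, the main inhibitor of Gli proteins, stood at 0.14 (SE 0.097) and the ciliary kinesin gene Kif7 at -0.023 (SE 0.14), and both overlapped between the groups. Of 20 genes of the primary cilium, 14 had positive fold changes (median 0.14), with 6 not overlapping on the higher side and 1 on the lower. The intraflagellar transport gene Ift80 was at 15.3 to 17.1 CPM in Npas3+/- and at 10.2 to 13.1 CPM in WT (0.47, SE 0.12, adjusted p = 0.276 in edgeR and 0.0253 in DESeq2). Kif3a, the motor of that transport, was at 166 to 171 against 187 to 194 CPM (-0.16, SE 0.046), and the transition zone gene Tctn1 at 41.7 to 44.8 against 36.8 to 39.2 CPM (0.20, SE 0.069).

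Of 13 further genes known as targets of the pathway in some tissue, 10 could be tested, 5 positive and 5 negative (median -0.050), and Nkx6-1, Nkx6-2 and Foxa2 were below the filter. Olig2, a factor of the oligodendrocyte lineage, was at 48.8, 41.9 and 45.7 CPM in Npas3+/- and at 39.0, 32.6 and 33.8 CPM in WT, with no overlap (0.37, SE 0.097, adjusted p = 0.276 in edgeR and 0.031 in DESeq2). The oligodendrocyte lineage list, which holds Olig2, had 7 of its 9 tested genes positive and a summed level of 317 to 335 CPM in Npas3+/- against 278 to 316 CPM in WT. Olig1, its neighbour and relative, was at 90.0 to 92.3 against 75.5 to 82.4 CPM (0.21, SE 0.058), and the part of this cell type in the level of Olig2 was not tested. The cyclin gene Ccnd2 stood at -0.20 (SE 0.088) with overlapping groups. Foxm1, a factor of dividing cells, was at 16.2, 6.70 and 7.10 CPM in Npas3+/- and at 15.6, 15.2 and 17.5 CPM in WT, so that Npas3+/- replicate 1 matched WT and replicates 2 and 3 did not (-0.68, SE 0.33, adjusted p = 0.454). Of 8 genes with zinc fingers related to those of the Gli proteins, 5 were negative (median -0.077), with Zic5 at -0.36 (SE 0.20) and Glis3 at 0.19 (SE 0.16).

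**Figure D4:**
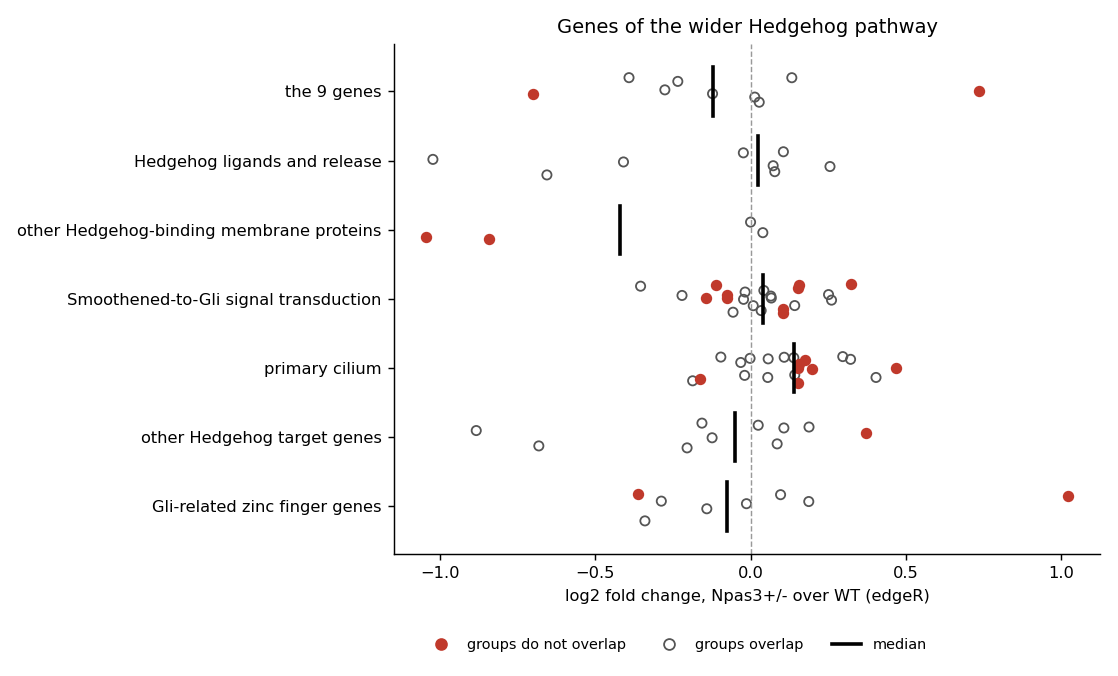
Log2 fold change of Npas3+/- over WT (horizontal axis) of each gene tested, for the 9 genes and 6 lists of the wider pathway, with red points for genes whose groups do not overlap, open points for the others and a black bar at each median. Boc lies at 0.74 and Gli3 at -0.70, and list medians run from -0.42, over 4 genes, to 0.14.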

How the data were processed

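The authors deposited raw read counts per gene for 6 libraries. The build was mm10, and the tools named are featureCounts, HISAT2 (2.1.0) and Trimmomatic (0.3.8), per the submitters' processing notes. Their annotation, strand setting and handling of multiply mapped reads are not given in the sources used here, so counts of overlapping genes may be mixed. Columns marked NP were taken as Npas3+/-, the only genotype other than WT in the labels. Symbols, coordinates and exon lengths came from GENCODE M21 on the same build, which matched 53274 of 53379 gene IDs.

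Counts were tested with edgeR 4.0.16 in R 4.3.3 (filterByExpr, TMM scaling, glmQLFit and glmQLFTest on genotype), with Benjamini-Hochberg adjustment over 21244 genes and calls made at 0.05. Positive log2 fold changes mean higher in Npas3+/-, their SE is the log2 fold change over the square root of F, and intervals are unadjusted. CPM use TMM-scaled libraries, and RPKM divide them by merged exon length. Alternatives were DESeq2 1.42.0, limma-voom (limma 3.58.1), other scalings and filters, a replicate block, a striatal covariate, a GC correction chosen after seeing the data, and each library left out. The script was tested on simulated counts. No library repeated another (chi-square of at least 39.0 per gene within a genotype). The members and lists were chosen with earlier results of these data known. Named are the 9 members, the 3 genes with the smallest p per pathway list at 1 CPM or more with Shh, Sufu and Kif7, the 2 nearest profiles for 6 members, and, of cell type lists, where genes are named, the 2 of highest level and the 2 of smallest p (also Tbr1, chosen to check the tissue). Some genes that this rule names are not reported here.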

Additional observations from a re-analysis of the deposited data

How the results depend on the processing

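None of the 9 genes passed in edgeR or limma-voom under any alternative run, and DESeq2 called 1, Boc. Over all genes edgeR called 8, DESeq2 511, and the fits with the replicate block 3, with or without the GC correction; leaving out 1 library gave 7 to 16 calls, the most without WT replicate 1. Deviations of same-numbered libraries correlated at 0.037, -0.030 and -0.088 across genes. Those of differently numbered libraries correlated from -0.059 to 0.087. With 3 libraries per genotype these values cannot tell whether the replicate numbers pair the samples. With the replicate block the log2 fold changes were 0.73 for Boc, -0.38 for Cdon and -0.75 for Gli3, and 0 of the 9 passed. The median of the 9 was -0.12 and ran from -0.27 to 0.048 with 1 library left out, above 0 only without Npas3+/- replicate 2. Boc, Cdon, Ptch1, Gli1, Gli2 and Gli3 kept their direction in all 16 alternatives. Gas1 turned to -0.034 with the striatal covariate, -0.049 with the GC correction and -0.044 with that correction and the block, and ran from -0.020 to 0.12 with 1 library left out. Smo turned to -6.9e-05 with upper-quartile scaling, -0.060 with the GC correction and -0.065 with that and the block, and ran from -0.12 to 0.10 with 1 library left out. Hhip turned to 0.65 with the striatal covariate and ran from -0.72 to 0.18 with 1 library left out. The cause of these turns was not tested. The GC correction on merged exons was not run, and the longest transcript was used instead.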

Other observations

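Gpr161, which encodes a ciliary receptor that restrains Hedgehog signalling, was singled out after its values were seen. It was at 33.8 CPM in Npas3+/- replicate 1 and between 139 and 147 CPM in the other 5 libraries, so its log2 fold change of -0.35 (SE 0.46) rests on 1 library.

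Such profiles were counted among the 10414 genes with a mean of at least 10 CPM, as 1 library more than 1 log2 unit outside the other 5 while those lay within 0.2 of each other. In Npas3+/- replicate 1 there were 3 low genes, Gpr161, Isca1 and Lrrc75b. In the other libraries there were 1 to 4 low genes and at most 1 high gene each. In WT replicate 2, Mapt, the gene of the microtubule protein tau, was at 459 CPM against 2221 to 2402 CPM elsewhere. Npas3+/- replicate 2, where Uty was the 1 low gene by this rule, is also the library with the lowest Smo, Gli2 and Hhip and the highest Boc. Npas3+/- replicate 1 likewise held the lowest value for 3 of the 9 genes. A link between Uty and the levels of these genes was not tested.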
